A study of Mus musculus with 12 samples.

Results

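Developmental transcription factors outside the Hox clusters specify organs and cell types of the embryo, and their genes carry long CpG islands that Polycomb complexes cover in cells that do not use them. Here 56 such genes were followed: 7 Pax, 7 Lhx, 3 sine oculis (Six2, Six3 and Six6), 5 Sox, 6 Nkx, 5 Fox, 3 Gata and 8 Tbx genes, and 12 further homeobox genes (Barhl2, Dlx1, Dlx2, Dlx5, Emx2, Evx1, Evx2, Gbx2, Gsc, Irx1, Otx1 and Otx2). They were listed by gene name and family, with no threshold on a measured value but with earlier results of these data known. The locus of a gene was its body in mm10 with 1000 bp on each side. Its methylation was the share of methylated calls among all calls over those CpGs, strands summed, whose depth was 10 calls or more in all of the 12 libraries. All 56 genes had at least 3 such CpGs, among 16535 protein-coding genes that did. Their loci held 14 to 326 measured CpGs (median 115, against 43 over all loci).

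The series used reduced representation bisulfite sequencing, which reads restriction fragments rich in CpGs and calls each CpG methylated or unmethylated. The cells were CMM cells, a GFP-positive mouse model of acute myeloid leukaemia with inv(16), injected into a vein of C57BL/6 mice. At about 1% GFP-positive cells in blood, the mice were given PBS or CpG-STAT3dODN, a STAT3 decoy oligonucleotide coupled to a CpG sequence, as 3 intravenous doses on alternate days, and spleen cells were sorted 1 day after the last dose. The PBS group was GFP-positive cells of PBS mice, sorted without regard to CD11b, a myeloid surface protein. The CD11b-negative and CD11b-positive groups were GFP-positive cells of CpG-STAT3dODN mice without and with that protein. Each group had 4 libraries. Treatment and CD11b sorting therefore changed together against PBS and cannot be told apart. All groups share the CMM line, the host strain and the spleen. Sex and age of the hosts, and whether the libraries of 1 group came from different mice, were not given in the sources used here, so the p-values measure the spread between these libraries, which may be technical.

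In most healthy tissues the CpG islands of such genes stay free of DNA methylation although the genes are silent, and Polycomb repressive complexes mark the histones there. Leukaemias and other cancers commonly methylate these same islands. A methylation level in a bulk sample is an average over molecules, so fewer methylated molecules in each cell and fewer cells that carry them cannot be told apart.

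The libraries held 112671408 to 157223205 calls. At a member locus a library had 807 to 61065 calls, and the 95% Wilson interval of a level was at most 3.32 points to each side, for counting error alone. CD11b-negative 2 and CD11b-positive 2 stood apart from the other libraries of their groups at these genes. They also had the most calls on 8 Y genes, 39.2 and 40.04 per 1000000 autosomal calls, against 8.28 to 12.2 in the other CD11b-negative, 23.2 to 24.2 in the other CD11b-positive and 5.33 to 18.1 in the PBS libraries. Their loci on the X chromosome averaged 32.8% and 33.0%, against 42.0% to 48.9% in the other 10 libraries, and they listed more CpGs (6514505 and 6839563) than the others (2831927 to 5722886). Although they belong to different groups, they were the most alike of all 66 pairs of libraries, with a median difference of 0.314 points over the 56 loci. What sets them apart was not tested. Counts of called loci and stretches in CD11b-positive cells are given with and without them. Promoter windows, family means, parts of loci and gene lists are given only with them.

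The RefSeq promoter windows of GRCm38.p6, the assembly of mm10, covered 43 of the 56 genes (the other 13 were Dlx5, Foxe1, Gata4, Gata6, Irx1, Lhx5, Otx1, Pax3, Sox17, Tbx15, Tbx2, Tbx3 and Tbx5). In the 250 bases before the annotated start the member windows held a median of 16 CG pairs and 61.8% G and C, against 6 CG pairs and 52.4% over all promoters. Of the 28 windows with at least 3 measured CpGs, 3 had a mean of 20% or more in PBS, those of Nkx6-1, Gbx2 and Foxd3. Their sequences follow with 2 unmethylated ones, Dlx2 and Foxc1, for comparison, 5′ to 3′ on the strand of the gene, with the CG pairs measured in every library in capitals.
Gbx2 (chr1:89931177-89931426, minus strand): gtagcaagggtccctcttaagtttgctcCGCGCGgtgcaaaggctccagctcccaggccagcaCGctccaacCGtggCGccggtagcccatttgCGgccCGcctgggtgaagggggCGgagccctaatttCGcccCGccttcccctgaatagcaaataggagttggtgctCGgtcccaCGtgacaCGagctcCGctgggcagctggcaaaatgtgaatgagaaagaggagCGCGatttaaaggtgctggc
Nkx6-1 (chr5:101664712-101664961, minus strand): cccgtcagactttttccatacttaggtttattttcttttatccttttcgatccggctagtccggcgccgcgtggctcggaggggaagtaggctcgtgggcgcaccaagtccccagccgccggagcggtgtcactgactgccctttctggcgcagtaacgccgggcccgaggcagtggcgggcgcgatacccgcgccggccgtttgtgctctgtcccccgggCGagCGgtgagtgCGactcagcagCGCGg
Foxd3 (chr4:99656049-99656298, plus strand): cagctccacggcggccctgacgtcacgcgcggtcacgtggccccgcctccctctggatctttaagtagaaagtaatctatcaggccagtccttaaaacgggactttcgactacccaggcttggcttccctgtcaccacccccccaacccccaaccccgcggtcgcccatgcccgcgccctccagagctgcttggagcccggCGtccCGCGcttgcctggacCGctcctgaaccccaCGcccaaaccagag
Dlx2 (chr2:71546755-71547004, minus strand): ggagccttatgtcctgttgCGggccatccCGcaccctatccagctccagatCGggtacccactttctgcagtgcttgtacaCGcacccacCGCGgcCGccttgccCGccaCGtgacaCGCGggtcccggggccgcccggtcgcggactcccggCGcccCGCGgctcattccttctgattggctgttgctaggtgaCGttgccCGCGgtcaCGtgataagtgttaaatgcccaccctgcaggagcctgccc
Foxc1 (chr13:31806396-31806645, plus strand): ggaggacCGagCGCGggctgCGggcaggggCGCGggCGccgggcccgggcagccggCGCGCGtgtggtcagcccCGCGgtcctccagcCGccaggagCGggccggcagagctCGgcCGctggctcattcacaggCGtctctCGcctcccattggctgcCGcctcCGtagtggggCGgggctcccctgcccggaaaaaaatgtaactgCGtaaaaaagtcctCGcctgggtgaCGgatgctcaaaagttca
The measured CpGs of the Gbx2 window averaged 48.2% ± 12.5 in PBS and 22.8% ± 13.5 in CD11b-positive cells (mean ± SD of the 4 libraries of a group, as in all values of this form). The Nkx6-1 window had 51.5% ± 4.77 and 18.6% ± 13.5, on 160 to 359 calls per library. The Foxd3 window had 34.9% ± 5.42 and 17.7% ± 5.84. In CD11b-positive 2 the Gbx2, Nkx6-1 and Foxd3 windows had 3.08%, 3.33% and 9.22%, the lowest of that group, and the means include it. The promoters of Dlx2 (1.46% ± 0.138 and 1.83% ± 0.619) and Foxc1 (1.19% ± 0.278 and 0.801% ± 0.447) were nearly free of methylation in both, although they are as rich in CG pairs. Of the 28 windows 1 was higher by more than 2 points, that of Tbx1, with 8.11% ± 3.14 and 19.2% ± 6.02 on 6 CpGs, and its PBS and CD11b-positive libraries did not overlap. The windows were described, not tested.

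In the untreated leukaemia cells the loci ranged from a few percent to over 50%, with a median of 11.8% against 21.7% over all loci. The highest were Gbx2 (59.1% ± 8.07), a factor of the midbrain-hindbrain boundary, and Irx1 (51.4% ± 7.02), an Iroquois factor of heart and nervous system patterning. Next came Tbx3 (38.9% ± 5.53) and Tbx18 (34.4% ± 4.97), T-box factors of limb and heart, and Gsc (35.5% ± 5.10), the goosecoid gene of the gastrula organizer. The neural crest factor Foxd3 (32.7% ± 5.22), the pancreas and motor neuron factor Nkx6-1 (28.6% ± 4.95), the hindlimb factor Tbx4 (26.8% ± 1.49), the neural progenitor factor Sox1 (26.2% ± 3.90) and the thyroid and kidney factor Pax8 (25.7% ± 3.21) completed the first 10. At the other end stood Lhx5 (5.74% ± 0.603), Dlx2 (4.38% ± 0.171) and Emx2 (3.67% ± 0.240), factors of the forebrain, Tbx20 (3.87% ± 0.743) of the heart, and Nkx2-3 (2.24% ± 0.259), which is needed to form the spleen. In all, 22 of the 56 loci were under 10% and 15 were at 20% or more, a level reached by 52.4% of all loci. From Tbx3 to Nkx6-1 the neighbours in this order differed by less than their SDs, and the PBS libraries of Gbx2 overlapped those of Irx1, as did those of Irx1 and Tbx3.

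**Figure D1:**
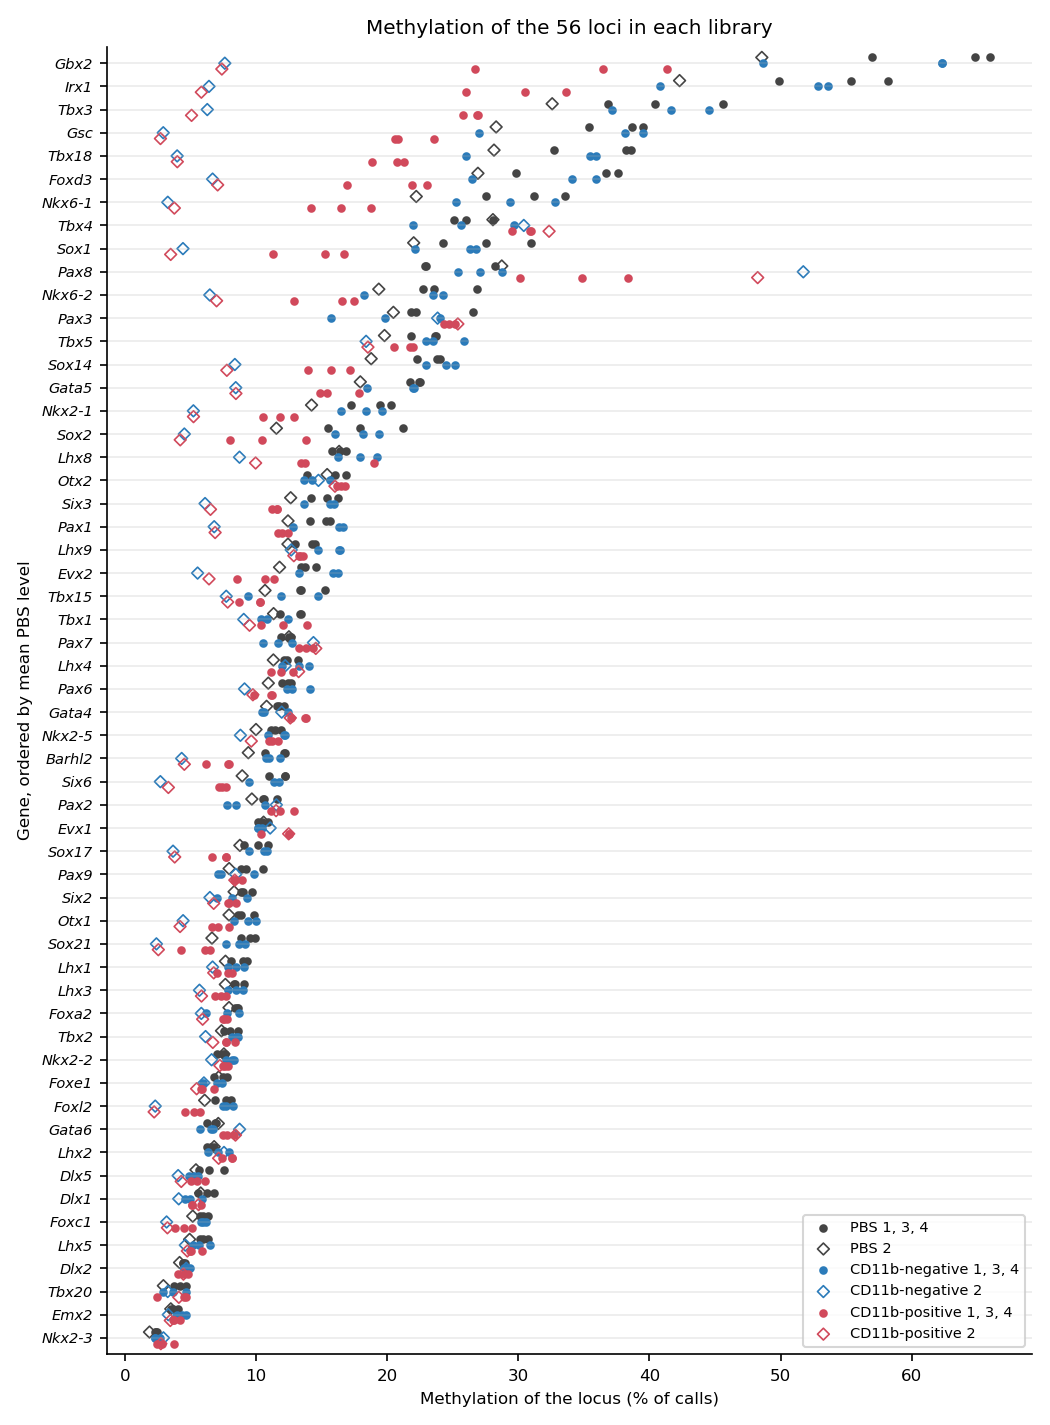
Methylation of each of the 56 loci (% of calls, x axis) in each of the 12 libraries, with genes ordered by their PBS mean and library 2 of each group as an open diamond. Of the 15 loci at 20% or more in PBS, 11 have all CD11b-positive libraries left of the PBS libraries and library 2 of both treated groups under 10%, whereas Pax8, Tbx4 and Pax3 have higher CD11b-positive means and Tbx5 overlaps PBS.

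A locus mean mixes the islands with CpG-poor DNA, so CpG-dense stretches were examined on their own. They join CpGs that have 25 or more listed CpGs in a window reaching 250 bp both ways, bridging gaps of up to 250 bp, and needed 5 measured CpGs. There were 131 in the loci of 55 members (Pax8 had none) and 15040 in all. In PBS, 23 of the 131 (17.6%), in 19 genes, were methylated at 20% or more, against 22.2% of all stretches, and 3 passed 50%. Low but measurable methylation was widespread: the member stretches had a median of 8.22% against 0.824% over all, and 65.6% of them were at 5% or more against 32.8% of the other stretches. None reached 70%, whereas 10.9% of the other stretches did.

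Among the homeobox genes, the stretches methylated in PBS were Gbx2 chr1:89929977-89931590 (60.9%), which covers the annotated start, Irx1 chr13:71962912-71964081 (55.01%) and chr13:71959320-71960221 (46.9%), and Gsc chr12:104471250-104471780 (45.5%) and chr12:104472049-104473411 (29.4%), the second of which covers the start. Otx2, a forebrain factor, had 1 at chr14:48662255-48662607 (30.6%), and Six3, a factor of forebrain and eye, 1 at chr17:85623529-85624025 (30.7%). In the Nkx genes they were Nkx6-1 chr5:101663237-101665706 (28.7%) and Nkx6-2 chr7:139581069-139583097 (20.8%), both over the start, Nkx2-1, a thyroid and lung factor, chr12:56532998-56533945 (32.7%), and Nkx2-5, a heart factor, chr17:26840989-26841283 (20.3%). The T-box genes had Tbx4 chr11:85886308-85886586 (53.1%), Tbx3 chr5:119671921-119672174 (49.1%), chr5:119680468-119680952 (45.6%) and chr5:119669887-119671602 (35.2%), Tbx15 chr3:99257050-99257254 (36.2%), Tbx18 chr9:87729465-87730840 (33.7%) and Tbx1 chr16:18588692-18589128 (22.4%). The rest lay in Foxd3 chr4:99655977-99658098 (33.98%) and Sox1 chr8:12395152-12397829 (26.2%), both over the start, in Sox14, a factor of interneurons, chr9:99875090-99876419 (20.95%), in Pax9, a factor of teeth and pharyngeal pouches, chr12:56700419-56700569 (23.97%), and beyond the end of Foxc1, an eye and vessel factor, chr13:31810977-31812000 (21.8%). The listed stretches of Sox14 and Tbx1 also cover an annotated start. For Irx1, Tbx3 and Tbx15 no start was annotated here, so whether their stretches cover it was not determined. Where several stretches of 1 gene are listed, they share a gene and are not independent. In 17 of the 23 PBS 2 was the lowest PBS library. Exons and introns were not used here.

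**Figure D2:**
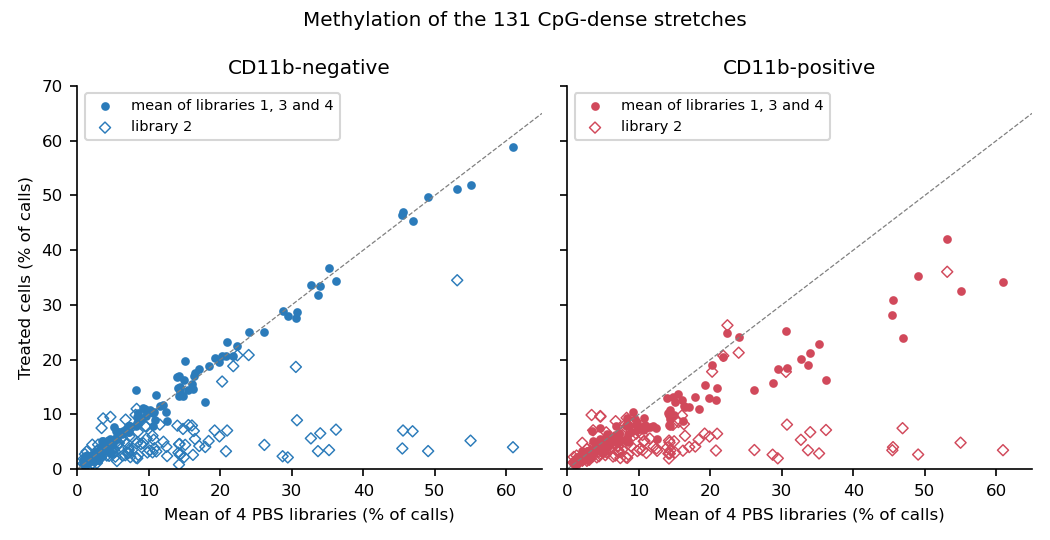
Methylation of the 131 CpG-dense stretches in CD11b-negative (left) and CD11b-positive cells (right) against the mean of the 4 PBS libraries (% of calls on both axes), with libraries 1, 3 and 4 as their mean and library 2 as an open diamond; the dashed line marks equality. The mean of CD11b-negative 1, 3 and 4 follows the line, that of CD11b-positive 1, 3 and 4 falls below it at the methylated stretches, and library 2 lies under 10% in both groups at 17 of the 23 stretches methylated in PBS.

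CD11b-positive cells of the treated mice were compared with the untreated leukaemia cells. Methylation fell at 8 of the 56 loci: Gbx2, Irx1, Gsc, Tbx18, Tbx3, Foxd3, Nkx6-1 and Sox1, by 14.5 to 31.1 points. It rose at 1, Pax8, by 12.2 points. Over all 16535 loci 3.74% were called lower and 16.9% higher, 20.6% in either direction. The members thus had more losses and fewer gains than all loci. This was described, not tested, since the genes were chosen with earlier results known. Other CpG-dense stretches of the same PBS level fell by similar sizes, as given below. The 8 that fell are 8 of the 9 members highest in PBS. Across members the median difference was -1.36 points, against 2.17 over all loci. A call needed an adjusted p under 0.05 in a quasi-binomial test of the calls over the 8 libraries compared, and a difference of at least 10 points, so a locus under 10% in PBS could not be called lower. At an adjusted p under 0.05 with any size of difference, 24 members were lower and 6 higher (6.32% and 38.3% of all loci), and the groups did not overlap at 23 lower and 7 higher members (5.84% and 39% of all loci).

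Among the homeobox genes, Gbx2 (chr1:89927962-89931176) had 65.97%, 48.6%, 64.8% and 56.97% in PBS 1 to 4, 48.7%, 7.61%, 62.3% and 62.3% in CD11b-negative 1 to 4 and 26.7%, 7.38%, 36.5% and 41.4% in CD11b-positive 1 to 4. Every CD11b-positive library was below every PBS library, with a mean difference of -31.1 points (quasi-binomial adjusted p = 0.00788), and library 2 of both treated groups was under 10%. The Irx1 locus (chr13:71958232-71963723) had 58.2%, 42.3%, 55.4% and 49.9% in PBS 1 to 4, 40.8%, 6.40%, 53.6% and 52.9% in CD11b-negative 1 to 4 and 25.97%, 5.82%, 30.5% and 33.7% in CD11b-positive 1 to 4. The order was the same, and the difference from PBS was -27.5 points (quasi-binomial adjusted p = 0.00713). At Gsc the locus (chr12:104471209-104473236) had 39.5%, 28.3%, 38.7% and 35.4% in PBS 1 to 4, 26.98%, 2.91%, 39.5% and 38.2% in CD11b-negative 1 to 4 and 23.5%, 2.698%, 20.8% and 20.6% in CD11b-positive 1 to 4. It fell by 18.6 points (quasi-binomial adjusted p = 0.0116), and CD11b-positive 2 was far below the other 3 of its group. The Nkx6-1 locus (chr5:101659184-101664711) had 33.6%, 22.2%, 31.2% and 27.5% in PBS 1 to 4, 25.3%, 3.26%, 29.4% and 32.8% in CD11b-negative 1 to 4 and 14.2%, 3.76%, 16.5% and 18.7% in CD11b-positive 1 to 4. The drop was largest in CD11b-positive 2, and the mean difference was -15.3 points (quasi-binomial adjusted p = 0.00745).

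In the T-box family, Tbx3 (chr5:119670534-119684724) had 45.6%, 32.6%, 40.4% and 36.8% in PBS 1 to 4, 37.1%, 6.27%, 41.6% and 44.6% in CD11b-negative 1 to 4 and 26.9%, 5.07%, 25.8% and 26.9% in CD11b-positive 1 to 4. CD11b-positive 1, 3 and 4 lay close together below all PBS libraries, and the mean difference was -17.7 points (quasi-binomial adjusted p = 0.0191). Without PBS 1 the difference was -15.4 points and was not called, and edgeR did not call Tbx3 or Gsc. The Tbx18 locus (chr9:87702800-87731260) had 38.6%, 28.1%, 38.2% and 32.7% in PBS 1 to 4, 25.97%, 3.97%, 35.96% and 35.5% in CD11b-negative 1 to 4 and 18.8%, 3.98%, 20.7% and 21.3% in CD11b-positive 1 to 4. All 4 CD11b-positive libraries were again below PBS (-18.2 points, quasi-binomial adjusted p = 0.00783). Tbx4 did not follow them: its locus had 25.97%, 28.1%, 28.03% and 25.1% in PBS and 30.9%, 32.3%, 29.5% and 30.99% in CD11b-positive cells, higher in all 4 by a mean of 4.13 points (quasi-binomial adjusted p = 0.0156), under the size a call needed.

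Of the other families, Foxd3 (chr4:99656299-99658671) had 37.6%, 26.9%, 36.7% and 29.8% in PBS 1 to 4, 26.5%, 6.68%, 34.1% and 35.9% in CD11b-negative 1 to 4 and 16.9%, 7.06%, 21.9% and 23.1% in CD11b-positive 1 to 4. It fell by 15.5 points (quasi-binomial adjusted p = 0.00998) without overlap of the groups. The Sox1 locus (chr8:12395519-12399555) had 30.9%, 22.01%, 27.5% and 24.2% in PBS 1 to 4, 22.1%, 4.42%, 26.7% and 26.3% in CD11b-negative 1 to 4 and 11.3%, 3.48%, 15.3% and 16.7% in CD11b-positive 1 to 4. It fell by 14.5 points (quasi-binomial adjusted p = 0.00441), and was the only 1 of the 9 calls kept when all 12 libraries were fitted together. Pax8 went up instead: its locus (chr2:24420551-24475599) had 22.9%, 28.7%, 22.97% and 28.2% in PBS 1 to 4, 27.1%, 51.7%, 28.7% and 25.4% in CD11b-negative 1 to 4 and 30.1%, 48.3%, 34.8% and 38.4% in CD11b-positive 1 to 4. CD11b-positive cells were higher than PBS by 12.2 points (quasi-binomial adjusted p = 0.0293) on 14 CpGs, none of them in a CpG-dense stretch. The highest libraries were CD11b-negative 2 and CD11b-positive 2. Without CD11b-positive 2 the difference was 8.74 points and was not called. Without PBS 1 or 3 (11.3 points each), PBS 4 (13.04) or CD11b-positive 4 (12.03) it kept its size but was not called either.

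Smaller losses, too small for a call but with an adjusted p under 0.05, were measured at 16 further members. In points, they were Nkx6-2 (-9.67), Sox14 (-8.57), Nkx2-1 (-7.70), Sox2 (-7.43), the pluripotency and neural factor, and Gata5 (-7.01), a heart and endoderm factor. Between -5 and -3 points lay the eye and forebrain factors Six6 (-4.68) and Six3 (-4.37), the retinal factor Barhl2 (-4.48), Evx2 (-4.15), Tbx15 (-3.89), Sox21 (-3.88), the sclerotome factor Pax1 (-3.64) and the endoderm factor Sox17 (-3.28). The ovary factor Foxl2 (-2.74), Otx1 (-2.34) and Foxc1 (-1.63) moved least. Small gains with an adjusted p under 0.05 were measured at Tbx4, Gata4 (1.63) and Gata6 (1.18), which act in heart and endoderm, Pax7 (1.62), a muscle stem cell factor, and Lhx2 (1.11), a factor of eye, forebrain and blood stem cells. At the other 26 members, among them Pax6, Emx2, Dlx1, Dlx2 and Nkx2-3, the difference was between -2.33 and 2.15 points with an adjusted p of 0.05 or more.

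In the CpG-dense stretches the losses were of similar size but closer to the threshold of the test. Of the 131, 12 in 11 genes were called lower and 0 higher (5.25% and 1.68% of all stretches, 6.93% in either direction). At an adjusted p under 0.05 with any size of difference 32 were lower and 5 higher (11% and 8.8% of all), and the groups did not overlap at 49 lower and 5 higher (15.1% and 11.6% of all stretches). The median difference was -1.64 points against 0.0281 over all. Called were 2 stretches of Irx1 and 1 each of Gbx2, Gsc, Tbx15, Tbx18, Foxd3, Sox1, Nkx6-1, Nkx6-2, Nkx2-1 and Six3. The largest loss was at the start of Gbx2, where the stretch had 67.2%, 50.1%, 67.1% and 59.3% in PBS, 49.6%, 3.99%, 63.4% and 63.8% in CD11b-negative and 25.03%, 3.45%, 35.98% and 41.7% in CD11b-positive libraries 1 to 4 (-34.4 points, quasi-binomial adjusted p = 0.0347). The Irx1 stretch with the higher coordinates fell from 55.01% ± 7.47 to 25.6% ± 14.2 and the other from 46.9% ± 7.48 to 19.8% ± 10.2. The 4 genes below were called in a stretch and not at the locus.

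The methylated stretch of Tbx15, a factor of the skeleton, had 37.2%, 26.1%, 46.4% and 35.03% in PBS, 26.4%, 7.21%, 39.4% and 37.1% in CD11b-negative and 10.5%, 7.14%, 19.6% and 18.8% in CD11b-positive libraries 1 to 4 (-22.2 points, quasi-binomial adjusted p = 0.0307). The Nkx2-1 stretch had 35.8%, 27.4%, 36.8% and 30.6% in PBS, 30.2%, 5.61%, 31.8% and 38.8% in CD11b-negative and 17.2%, 5.35%, 22.5% and 20.7% in CD11b-positive libraries 1 to 4 (-16.2 points, quasi-binomial adjusted p = 0.0417). Both separated the groups completely. The Six3 stretch had 36.7%, 28.9%, 31.2% and 26.1% in PBS, 25.3%, 8.93%, 27.7% and 32.9% in CD11b-negative and 18.9%, 8.13%, 20.05% and 16.6% in CD11b-positive libraries 1 to 4 (-14.8 points, quasi-binomial adjusted p = 0.0495). It rests on 10 CpGs, and its call ended in 7 of the 8 fits that leave out 1 library. At the start of Nkx6-2, a factor of neural progenitors and glia, the stretch had 24.5%, 17.04%, 21.02% and 20.6% in PBS, 17.05%, 3.26%, 21.7% and 23.1% in CD11b-negative and 9.93%, 3.39%, 13.3% and 14.8% in CD11b-positive libraries 1 to 4 (-10.4 points, quasi-binomial adjusted p = 0.0343). The Nkx6-2 locus as a whole fell by 9.67 points, just under the size for a call. All 12 stretch calls ended without PBS 1, 3 or 4 or CD11b-positive 1 and with edgeR, where 0 of 131 were called, and their differences kept their sign. Without CD11b-positive 2 there were 14 calls.

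At 4 islands methylated in PBS, the CD11b-positive and PBS means lay within 3 points of each other. The Pax9 stretch had 23.97% ± 3.83 and 23.4% ± 2.42, and that of Nkx2-5 20.3% ± 1.17 and 18.7% ± 1.15. Tbx1, a gene of pharyngeal and heart development, had 22.4% ± 1.34 and 25.2% ± 2.91 in the stretch over its start, although the promoter window given above, which partly lies in that stretch, was higher, and the stretch beyond Foxc1 21.8% ± 1.54 and 20.6% ± 3.02. At these 4 the groups overlapped and the quasi-binomial adjusted p was 0.516 to 0.965. Sox14 (-8.19 points) missed the 10 points, and 3 stretches of Tbx3 (-17.3 to -22.0), 1 of Tbx4 (-12.6), 1 of Gsc (-15.2) and 1 of Otx2 (-7.24) missed the adjusted p. Set beside other stretches of the same PBS level, the members did not stand out in size: from 20% to 70% in PBS their median difference was -16.2 points (23 stretches) against -16.3 (1680 others), and from 10% to 20% it was -5.54 (30) against -5.48 (746). Of the former, 12 of 23 and 664 of 1680 were called lower. These medians were described, not tested.

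Inside the dense stretches nearly all members were lower in CD11b-positive cells, while outside them the members were divided. Inside the stretches, 52 of 55 members had a lower mean in CD11b-positive than in PBS cells, and the groups did not overlap at 32 lower and 0 higher (13.6% and 7.64% of all loci with such CpGs). Outside them 29 of 53 members were higher, without overlap at 18 higher and 13 lower (59.6% and 2.64% of all). The loss was shared outside at most of the loci called lower: in points, Irx1 changed by -24.1, Gsc by -20.3, Tbx18 by -14.9, Gbx2 by -13.9, Tbx3 by -12.1 and Nkx6-1 by -9.93. Foxd3 went the other way there, by 3.01 points on 3 CpGs, and Sox1 had no measured CpGs outside. In 27 of the 52 members measured in both parts, the inside was lower and the outside higher. Both parts were without overlap in 10: Evx1, Gata5, Gata6, Lhx3, Lhx4, Lhx8, Nkx6-2, Otx2, Pax3 and Tbx4. At Gata5, a heart and endoderm factor, the inside had 19.9% ± 2.35 in PBS and 11.2% ± 3.84 in CD11b-positive cells, and the 4 CpGs outside had 55.7% ± 3.11 and 80.7% ± 5.39. Lhx8, a factor of forebrain cholinergic neurons, had 11.6% ± 1.21 and 6.95% ± 2.87 inside, 65.2% ± 4.62 and 77.5% ± 5.94 outside. In Evx1, a factor of spinal interneurons, the values were 10.9% ± 0.841 and 6.74% ± 2.07 inside, 10.2% ± 0.808 and 14.97% ± 1.45 outside, so its locus mean hardly moved. Of the 56 loci, 37 overlap another annotated gene and 5 another coding gene, so a locus is not always that gene alone.

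**Figure D3:**
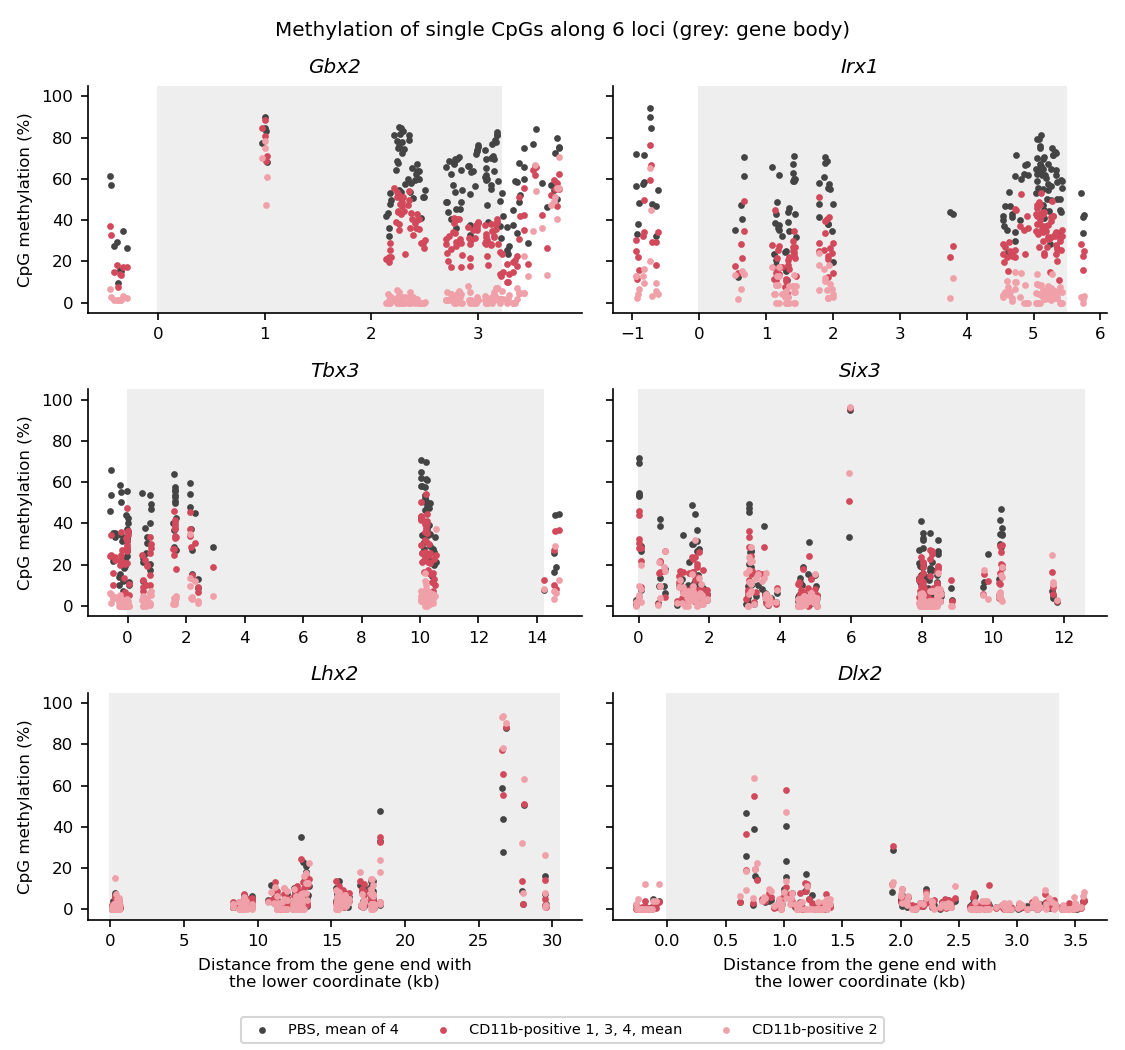
Methylation of single CpGs (%) along 6 loci by distance from the gene end with the lower coordinate (kb; gene body in grey): the mean of the 4 PBS libraries, the mean of CD11b-positive 1, 3 and 4, and CD11b-positive 2. Clusters of CpGs in Gbx2, Irx1 and Tbx3 drop together from PBS to CD11b-positive cells and reach near 0 in CD11b-positive 2, whereas most CpGs of Lhx2 and Dlx2 are low in all 3.

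By family, the mean over member loci was lower in CD11b-positive than in PBS cells in 8 of 9 families and higher in the Pax genes. The Sox genes, factors of neural and endodermal progenitors, went from 16.7% ± 2.47 to 9.14% ± 3.48, with 5 of 5 lower at an adjusted p under 0.05 and 1 called. The other homeobox genes went from 18.8% ± 2.02 to 11.5% ± 3.52 (6 of 12 lower, 3 called) and the Nkx genes from 15.1% ± 1.89 to 9.69% ± 2.61 (3 of 6, 1 called). Tbx had 19.96% ± 1.91 and 15.2% ± 2.81 (3 lower and 1 higher of 8, 2 called), Fox 12.3% ± 1.44 and 7.80% ± 2.17 (3 of 5, 1 called) and the Six2, Six3 and Six6 mean 11.5% ± 1.19 and 8.12% ± 1.73 (2 of 3, 0 called). In these 6 families no CD11b-positive library overlapped the PBS libraries. The Gata genes (13.2% ± 0.824 and 11.8% ± 1.45, 1 lower and 2 higher of 3) and the Lhx genes, LIM homeobox factors of brain and pituitary (10.2% ± 0.535 and 9.55% ± 0.660, 0 lower and 1 higher of 7), overlapped. Pax had 15.3% ± 0.523 and 16.9% ± 0.883, with 1 lower and 2 higher of 7. This rise rests on Pax8: the other 6 Pax genes had 13.5% ± 0.893 in PBS and 13.4% ± 0.483 in CD11b-positive cells, a difference of -0.128 points. The mean of all 56 was 15.6% ± 1.45 and 11.6% ± 2.10, while that of all loci moved the other way, 27.6% ± 0.938 and 31.6% ± 0.949. No p is given for a family, since the genes were chosen with results known.

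**Figure D4:**
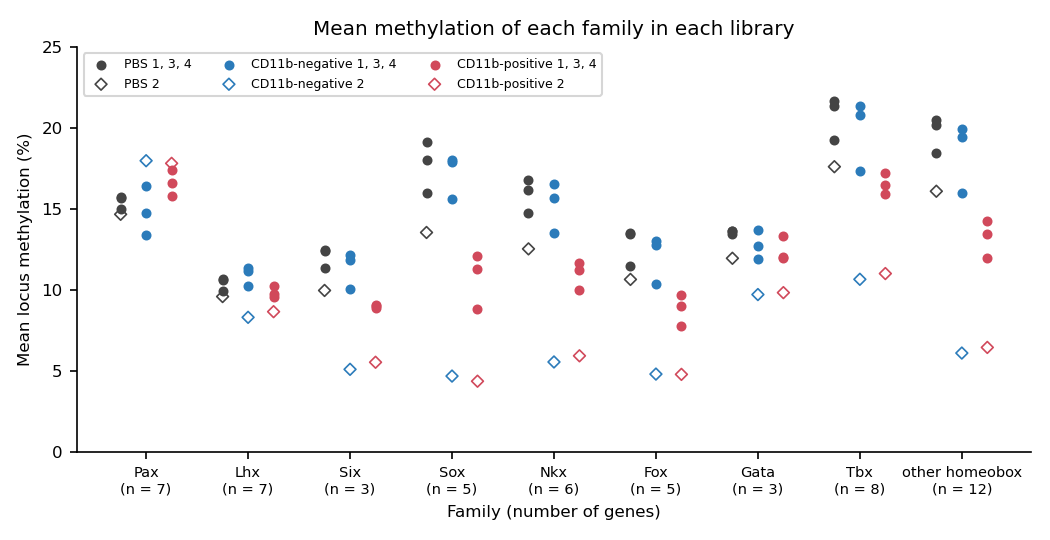
Unweighted mean methylation of the member loci of each family (%, y axis) in each library, with library 2 of each group as an open diamond. In CD11b-positive cells the Sox, Nkx, Tbx, Fox, other homeobox and sine oculis means all lie below PBS, Pax lies above (through Pax8), and the Lhx and Gata means overlap.

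The level at the 8 lower loci went with the Y share library by library. Each library's level as a percent of the PBS mean had a median over the 8 loci of 114%, 82.2%, 109% and 95.6% in PBS 1 to 4, 81.7%, 12.7%, 104% and 107% in CD11b-negative 1 to 4, and 51.1%, 12.8%, 59.8% and 65.5% in CD11b-positive 1 to 4. The Y calls per 1000000 were 5.33, 18.1, 7.95 and 10.7, then 12.2, 39.2, 10.9 and 8.28, then 24.2, 40.04, 23.3 and 23.2. PBS 2 was the lowest PBS library at these loci and the highest in Y calls, as was library 2 in both other groups. When the fit also held the Y share as a term, 0 of the 56 loci and 0 of the 131 stretches were called, as were 0 of all 16535 loci and 0 of all 15040 stretches, and 7 of the 8 lower loci changed sign (1.36 to 6.02 points). The Y share itself did not overlap between PBS and CD11b-positive libraries, so it and the group cannot be told apart in this fit. In a fit of all 12 libraries 1 locus (Sox1, lower) and 0 stretches were called, against 0.435% of all loci lower and 12.6% higher and 20 of all stretches. The 9 differences were the same in that fit, with quasi-binomial adjusted p of 0.0430 to 0.107. Without CD11b-positive 2 the same 8 loci were called lower, and their differences were -11.8 to -24.2 points.

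**Figure D5:**
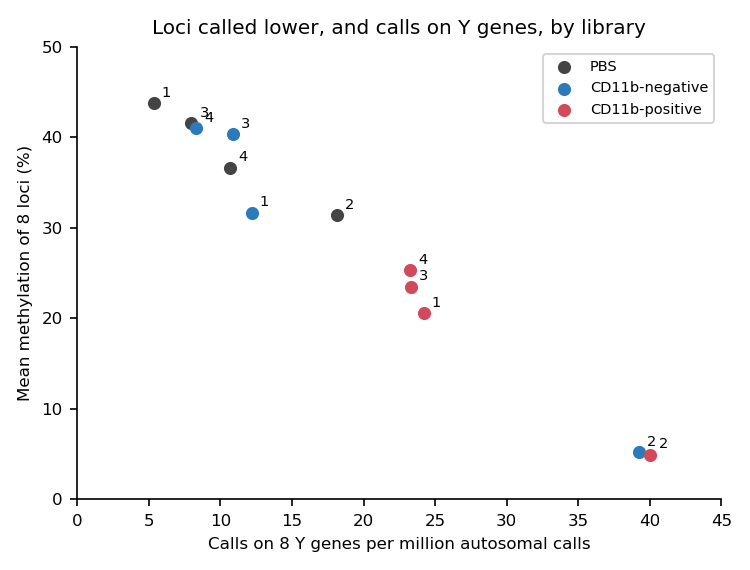
Mean methylation of the 8 loci called lower in CD11b-positive cells (%, y axis) against the calls on 8 Y genes per 1000000 autosomal calls (x axis), 1 point per library, numbered by replicate. CD11b-negative 2 and CD11b-positive 2 lie at about 5% with 39.2 and 40.04 Y calls, and the other CD11b-positive libraries lie between them and the PBS libraries.

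CD11b-negative cells were compared with PBS cells for the treated cells without the marker. Over the 23 stretches methylated in PBS, CD11b-negative 3 and 4 had medians of 32.8% and 34.8%, within the 27.2% to 36.8% of the PBS libraries. CD11b-negative 1 was slightly under them (25.5%) and CD11b-negative 2 far below (6.53%). Of the members, 0 of 56 loci and 0 of 131 stretches were called by the quasi-binomial test (0% and 0% of all) and by edgeR. At an unadjusted p under 0.05 there was 1 locus, Dlx2 (0.301 points), against 5.49% of all loci, and 4 stretches, in Lhx5, Evx1, Tbx1 and Nkx2-5, against 5.87% of all, all named after their values were seen. The groups overlapped at every member locus (5.4% of all loci were higher and 0.683% lower without overlap). They did not overlap at 1 stretch of Lhx5, which was higher, and 2 of Evx1, which were lower (4% and 0.459% of all stretches). The lowest adjusted p of a member was 0.726 at a locus and 0.836 in a stretch. Mean levels of the 8 loci were lower by 5.96 to 13.8 points with CD11b-negative 2 and by at most 2.36 without it. At Gbx2, CD11b-negative 1, 3 and 4 had 48.7%, 62.3% and 62.3%, within the range of PBS, and CD11b-negative 2 had 7.61%. CD11b-negative 1 was under the lowest PBS library at Irx1 (40.8% against 42.3%), Gsc (26.98% against 28.3%), Tbx18 (25.97% against 28.1%) and Foxd3 (26.5% against 26.9%). At the others of the 8 loci CD11b-negative 1 was within the range of PBS. CD11b-negative 2 was the lowest of its group in 23 of the 23 stretches methylated in PBS, and without it the differences at Tbx3 and Nkx6-1 became 2.22 and 0.505 points.

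The comparison of CD11b-positive with CD11b-negative cells, both from treated mice, leaves the treatment the same. The CD11b-positive means were lower at the methylated islands, but the spread of CD11b-negative 2 covered the difference. The quasi-binomial test called 0 of 56 loci and 0 of 131 stretches (0% and 0% of all), as did edgeR. At an unadjusted p under 0.05 there were 5 loci, Pax2, Pax7 and Gata4 higher and Barhl2 and Sox14 lower, all named after their values were seen, against 18.5% of all loci, and 6 stretches against 6.55% of all. The lowest adjusted p was 0.269 at a locus and 0.547 in a stretch. Over all loci the 2 libraries numbered 2 varied together, with a correlation of 0.851 between their deviations from the group means. With library 2 left out, numbers 1, 3 and 4 correlated at only 0.165, -0.0696 and 0.0654, so a block by number rests mainly on library 2. With that block 3 loci were called lower, Gbx2 (-19.0 points), Irx1 (-15.0) and Tbx3 (-11.1). So were 7 stretches in 5 genes, Gbx2, Gsc, Irx1, Tbx3 and Tbx15. The block fit called 0.417% of all loci and 4.01% of all stretches lower, so the 7 of 131 stretches lie near the share over all. The groups did not overlap at 3 loci, all higher: Pax3, Otx2 and Gata4 (4.91% of all loci were higher and 0.333% lower in this way), and at 1 stretch, of Nkx2-2, which was lower (1.52% of all stretches were higher and 0.818% lower).

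The calls of this comparison rested on library 2. Without CD11b-negative 2, 9 loci were called lower, the 8 that fell against PBS and Sox14, and 0 higher (2.97% and 14.4% of all loci). Without library 2 of both groups, an alternative chosen after the data were seen, those 8 were called, with Gbx2 at -22.9, Irx1 -19.0, Tbx3 -14.6, Gsc -13.3, Nkx6-1 -12.7, Tbx18 -12.2, Foxd3 -11.5 and Sox1 -10.6 points, and 12 stretches were called lower. In that fit 2.33% of all loci were called lower and 10.7% higher, and 4.5% of all stretches were called lower. Without any other single library 0 were called. CD11b-positive 1, 3 and 4 were lower than CD11b-negative 1, 3 and 4 at each of the 8 loci, for example at Gbx2 (26.7%, 36.5% and 41.4% against 48.7%, 62.3% and 62.3%). Their Y share was also higher, 23.2 to 24.2 against 8.28 to 12.2 calls per 1000000, and its part in the difference was not tested beyond the fit with that term.

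Other developmental transcription factor genes also showed more losses than gains in CD11b-positive against PBS cells. Of 104 listed, 102 were measured, 13 were called lower and 5 higher, with a median difference of -2.22 points, against 3.74% lower, 16.9% higher and a median of 2.17 over all loci. The largest loss was at Sox11 (64.3% to 31.4%), a neural progenitor factor, and the largest gain at Sox5 (48.8% to 67.4%), a factor of cartilage and neurons. Of the 34 genes of Polycomb complexes, which bind such islands, 1 was called higher, Cbx6 (45.1% to 55.7%), and 1 lower, Rbbp7 (34.7% to 15.8%), which lies on X, with a median of 0.884 points, a smaller share in each direction than over all loci. Genes listed for other spleen cells were mostly higher, the direction also more frequent over all loci (16.9% called higher, median 2.17 points). Of 19 measured (25 listed), 11 were called higher and 1 lower, with a median of 11.2 points. The list also held the myeloid genes Elane, Mpo and Ly6g, and Elane (47.8% to 69.1%) was among the 11. The gains were led by the T cell gene Cd8a (36.9% to 64.6%), and the 1 that fell was the stromal chemokine Cxcl12 (51.5% to 33.00%). No member of these lists was called in the other 2 comparisons. The part of other cells in the results for the 56 genes was not tested.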

How the data were processed

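Reduced representation bisulfite libraries of 12 sorted cell samples were used, 4 in each of 3 groups. The authors deposited, for each library, counts of methylated and unmethylated calls at each CpG of mm10. The submitters' processing notes name Bismark, methylKit 1.20.0, cutadapt 2.7 and Trim Galore 0.6.4. Duplicate removal and bisulfite conversion are not described there, so copies of 1 molecule may be counted more than once, and intervals cover counting error only.

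Both strands of a CpG were summed and CpGs with at least 10 calls in all 12 libraries were kept. Loci are mm10 gene bodies with 1000 bp on each side and at least 3 such CpGs. CpG-dense stretches join CpGs with 25 or more listed CpGs in a window of 250 bp both ways and hold 5 or more measured ones. A level is methylated over all calls, as a percent. Groups were compared with a quasi-binomial logistic F test on the 8 libraries compared, with dispersions moderated by the method of limma within bins of level bounded at 5, 20, 80 and 95%, and Benjamini-Hochberg adjustment over all 16535 loci or 15040 stretches. Called means a size of 10 points or more with an adjusted p below 0.05. On simulated data for CD11b-positive against PBS, the test called 77 of 100 changes of 15 points and 98 of 100 of 30 points. For CD11b-negative against PBS it called 58 and 81, and between the treated groups 69 and 84. False calls were 1, 1 and 2 in these comparisons. The comparisons with 0 calls may therefore miss changes of this size. These rates are over all 16535 loci and were not determined for the members alone. The spread at a member could be wide, as at Gbx2, with an SD of 25.9 points in CD11b-negative cells. Deviations of CD11b-negative 2 and CD11b-positive 2 were also shared over all loci, with a correlation of 0.851. The rates therefore do not measure power or false calls at the members. Python 3.11.15, numpy 2.4.6, scipy 1.17.1, pandas 2.3.3, matplotlib 3.10.9 and, for an alternative count test, edgeR 4.0.16 with limma 3.58.1 were used. Promoter sequences are from RefSeq (GRCm38.p6).

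The genes and lists were chosen with earlier results of these data known. Values per library are given for the members called at a locus or in a stretch, the levels of the 10 highest and 5 lowest members in PBS are named, as are the stretches methylated in PBS, and the largest called gain and loss of each gene list. The labels share replicate numbers across groups without saying what they stand for. Deviations of same-numbered libraries correlated over all loci at 0.167, 0.851, 0.489 and 0.543 for numbers 1 to 4 between CD11b-positive and CD11b-negative cells, each above 0.1, so that pairing was taken up as a replicate block. With library 2 left out the correlations were 0.165, -0.0696 and 0.0654. Against PBS not every correlation was above 0.1: CD11b-positive 1 to 4 had 0.0896, 0.457, 0.134 and -0.0306. CD11b-negative 1 to 4 had 0.340, 0.507, 0.397 and -0.115 against PBS. With library 2 left out, numbers 1, 3 and 4 had -0.0294, -0.0508 and -0.0584 for CD11b-positive and 0.134, 0.318 and -0.172 for CD11b-negative cells. The alternatives tried were other coverage minimums, CpG weights, densities, widths, tests and sets of libraries, and the Y share as a term.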

Additional observations from a re-analysis of the deposited data

Results flagged for a closer look

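In 9 of the 102 groups of 4 libraries examined, 1 library lay far from the other 3 of its group by Dixon's criterion, which chance meets in about 1 in 20 groups. CD11b-positive 2 was low at the Gsc locus (2.698% against 20.6% to 23.5%), the Tbx18 locus (3.98% against 18.8% to 21.3%), the Tbx3 locus (5.07% against 25.8% to 26.9%) and in the mean of Six2, Six3 and Six6 (5.52% against 8.88% to 9.08%). The same library was high in Y calls per 1000000 autosomal calls (40.04 against 23.2 to 24.2). CD11b-negative 2 was likewise high in these Y calls (39.2 against 8.28 to 12.2), and at the Pax8 locus it was high as well (51.7% against 25.4% to 28.7%). PBS 2 was low in the Gsc stretch at chr12:104471250-104471780 (38.0% against 47.2% to 49.1%) and in the mean of the Gata genes (11.9% against 13.5% to 13.7%). All 9 concern library 2 of a group.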

How the results depend on the processing

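Against PBS, the count of loci called in CD11b-positive cells was 9, and 1 with all 12 libraries in one fit, 0 with the Y share as a term, and 7 to 10 when single libraries were left out. The count of stretches was 12, and 0 with all 12 libraries, 0 with the Y share, 0 with edgeR and 0 to 14 without single libraries. Between CD11b-positive and CD11b-negative cells the counts of loci and stretches were 0 and 0, and 3 and 7 with the replicate block. Same-numbered libraries of these groups correlated at only 0.165, -0.0696 and 0.0654 once library 2 was left out. Without single libraries the counts were 0 to 9 and 0 (9 loci without CD11b-negative 2). They were 8 and 12 without library 2 of both groups, an alternative chosen after the data were seen. Against PBS the block gave 9 loci and 11 stretches. Of the stretches methylated in PBS, 23 at 20%, 3 remained at 50%.

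With the Y share as a term, differences changed sign, but no locus or stretch was called. For CD11b-positive cells the quasi-binomial adjusted p of the loci named below was 0.589 to 0.925 against PBS. Against CD11b-negative cells it was 0.455 to 0.721. These differences therefore cannot be told from no change. Against PBS, CD11b-positive loci then stood at 1.36 (Foxd3), 1.76 (Gbx2), 3.89 (Gsc), 1.60 (Irx1), 1.87 (Nkx6-1), 1.45 (Tbx18) and 6.02 (Tbx3) points. The stretches stood at 2.24 (Gbx2), 1.74 (Foxd3), 1.89 (Nkx6-1), 1.01 (Nkx6-2), 1.00 (Tbx18), 0.986 (Nkx2-1), 2.43 (Gsc) and 3.35 (Irx1). For CD11b-negative cells the loci of Nkx6-1 and Tbx3 stood at 0.548 and 1.71, and the stretches of Nkx6-1, Nkx2-1 and Gsc at 0.251, 0.832 and 0.856. For CD11b-positive against CD11b-negative cells the loci stood at 4.84 (Foxd3), 8.60 (Gbx2), 10.6 (Gsc), 9.37 (Irx1), 5.54 (Nkx6-1), -3.07 (Pax8), 2.76 (Sox1), 8.07 (Tbx18) and 8.48 (Tbx3). The stretches there stood at 14.9 (Gbx2), 5.27 (Foxd3), 6.55 (Nkx6-1), 3.92 (Nkx6-2), 2.76 (Sox1), 8.01 (Tbx18), 4.92 (Nkx2-1), 12.6 (Gsc), 3.45 and 13.1 (Irx1) and 1.38 (Six3). Without CD11b-negative 2, its group against PBS changed sign at the loci of Nkx6-1 (range without single libraries -9.33 to 0.505) and Tbx3 (-10.5 to 2.22) and in the stretches of Nkx6-1 (-9.93 to 0.196), Nkx2-1 (-10.1 to 0.938) and Gsc (-15.4 to 1.03). The cause of these changes was not tested. Of the values of single loci and stretches under all alternatives, 965 kept direction and side of the threshold, 112 lost and 33 gained a call, and 45 changed sign. They include the comparisons without any call in the main fit, where keeping the side means staying uncalled.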
